A study of Mus musculus with 24 samples.

Results

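Motile cilia axoneme genes were taken as the protein-coding genes of the deposited table whose names begin with Dnah, Dnai, Cfap, Rsph, Drc, Tekt or Spag followed by a number, together with Foxj1. Of 97 genes with such a name, 89 reached a TPM (the share of transcripts in a library, corrected for transcript length) of 1 or more in at least 4 libraries and form the set described here, out of 17823 genes tested in the series. Of these 89 members, 75 had 1 TPM or more in all 24 libraries. Just inside the limit were Dnah14 with 6 such libraries, Cfap47 with 7 and Spag5 with 8. Outside it were Spag4 with 1 library, at 1.31 TPM, and 7 genes that never reached 1 TPM, among them Dnah17, Rsph6a and Tekt3. The name is wider than the axoneme: 8 members, Spag5, Spag7, Spag9, Spag11b, Cfap36, Cfap97, Cfap410 and Cfap418, have known roles elsewhere or no known place in it, and they are counted apart from the other 81, which are called axoneme members below.

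Lungs of wild-type C57BL/6 mice aged 7 weeks were studied. Mice drank water with an aqueous extract of Artemisia argyi, a mugwort (AEAA in the labels), over 28 days, in 3 groups of 5 that received 0.5 mg/mL (low dose), 1 mg/mL (mid dose) or 1.5 mg/mL (high dose). These mice, and 5 mice of an LPS group without extract, received lipopolysaccharide (LPS), a bacterial cell wall component that inflames the lung, at 5 mg/kg into the trachea on day 29, and lungs were collected after 8 h. The 4 control mice received saline per the treatment protocol, although their sample characteristics also list the LPS challenge. No group had extract without LPS, so extract is only ever compared within challenged mice or together with the challenge. Each library was made from the total RNA of 1 mouse lung after removal of ribosomal RNA, and the p-values measure the spread between these mice.

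The axoneme is the core of a motile cilium, a ring of microtubule doublets around a central pair. Outer and inner dynein arms on the doublets are the motors, radial spokes and the nexin-dynein regulatory complex pass signals and restrain the sliding, and tektins and other inner proteins stiffen the doublets from within. In the lung such cilia belong to the multiciliated cells of the airways, where they move mucus. Foxj1 is the transcription factor that switches on these genes in that cell type, together with factors of the RFX family. In whole lung RNA, fewer ciliated cells and less RNA of a gene per cell cannot be told apart. A TPM level is also a share, so it moves with the RNA of the other cells in the sample.

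The libraries differed in ways that bear on every value below. The club cell secretoglobin Scgb1a1 made up 23.2 to 35.5% of all TPM in control libraries and 2.51 to 8.80% in challenged ones, and the TPM of the remaining genes share what it leaves. The median gene was 0.55 higher (log2) in LPS than in control lungs. Each comparison is given for the TPM as deposited and again with libraries set level by median-of-ratios factors, here called scaled, where that median is 0.00. In 7 of the 20 challenged libraries (LPS replicates 2 and 4, low dose replicate 1, mid dose replicates 1 and 4, high dose replicates 1 and 4) the chemokine Cxcl2 was at 0.09 to 1.37 TPM, near the control range of 0.06 to 0.27, against 45.1 to 454 TPM in the other 13. Counts are given with and without those 7 libraries, a choice made after the data were seen. Leaving them out kept LPS, mid dose and high dose replicates apart from those named, and low dose replicates 2 to 5. LPS replicates 1 and 3 and low dose replicate 5 held skeletal muscle and basal keratin transcripts, where Acta1, an actin of muscle, reached 1990.2, 1296 and 470.2 TPM against at most 5.54 TPM elsewhere. All mice are labelled male, yet Xist, the RNA of the inactive X chromosome, was at 25.8 to 95.5 TPM and the Y-linked Ddx3y at no more than 0.02 TPM in the 24 libraries.

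The tissue held clear airway cilia transcripts in every library. The 81 axoneme members together made up 1410 ± 178 TPM in control lungs (SD, n = 4), 1276 ± 335 in LPS lungs, 960.2 ± 292 with the low, 1184 ± 281 with the mid and 1180 ± 588 with the high dose (n = 5 each). After scaling the sums were 1927 ± 422 in control and 1073 ± 226 in LPS lungs, and 949 ± 255, 1033 ± 203 and 1219 ± 527 at the low, mid and high dose. As deposited the LPS libraries, at 849.8 to 1772 TPM, overlapped the control libraries, at 1178 to 1608 TPM. After scaling all 5 LPS libraries lay below the lowest control library. In each challenged group the libraries with little Cxcl2 held the highest sums: the 7 libraries had 1346 to 1939 TPM and the other 13 had 613 to 1255 TPM. Summed markers of ciliated cells showed the same order, at 1768 to 2667 TPM in those 7 and 768 to 1478 TPM in the other 13, as did markers of type II alveolar cells. Club cell markers did not, at 31973 to 105750 TPM against 35980 to 92151 TPM. What sets these libraries apart was not tested.

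**Figure D1:**
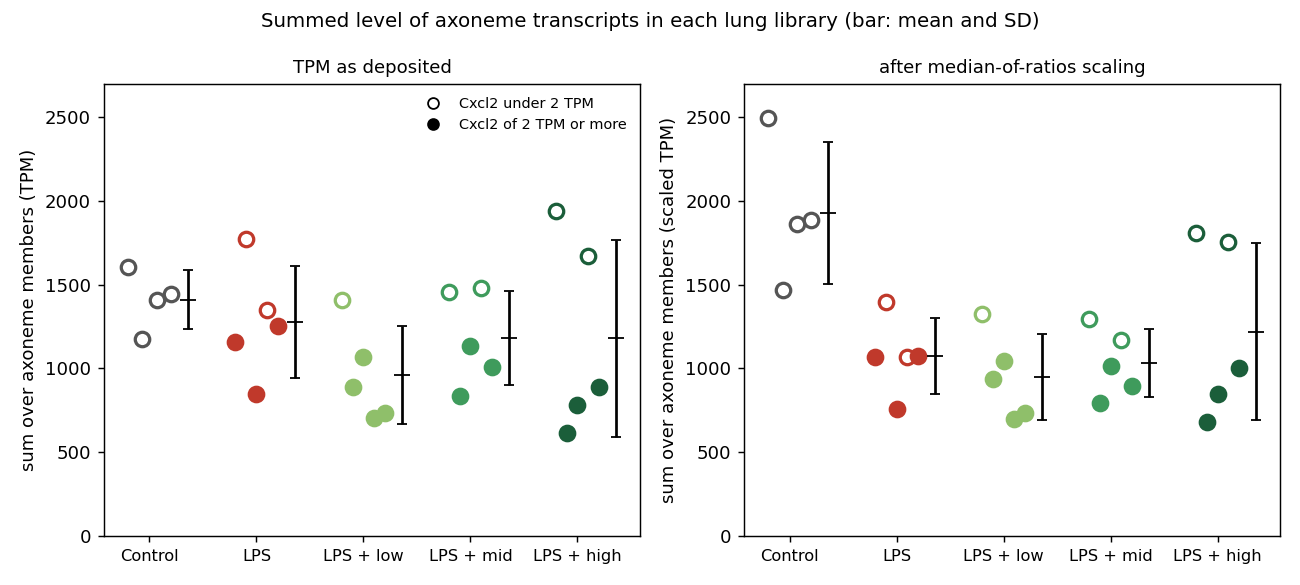
Summed level of the 81 axoneme members in each library, as TPM deposited on the left and after median-of-ratios scaling on the right. Open points are libraries with Cxcl2 under 2 TPM, all controls among them, filled points the other libraries, and the bars give mean and SD of each group. The open points of each challenged group lie above its filled points as deposited, and all LPS libraries lie below all control libraries after scaling.

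The axoneme members varied together from mouse to mouse. Within the LPS group, replicate 2 held the highest value for 75 of 81 axoneme members (92.6%, against 30.8% of all genes tested) and replicate 3 the lowest for 62. Low dose replicate 1 was highest for 78 of them (96.3%, against 38.3% of all genes). High dose replicate 1 was highest for 70 (86.4%, against 43.0% of all genes) and high dose replicate 2 lowest for 73 (90.1%, against 29.1% of all genes). The median SD between mice of an axoneme member, in log2 units, was 0.19 in control lungs, close to the 0.18 of all genes. It was 0.40 at LPS and at the low dose, against 0.27 and 0.24 for all genes, 0.35 against 0.25 at the mid dose, and 0.72 against 0.31 at the high dose. The depth of the libraries is unknown, since the table holds TPM and no counts, so how much of this spread is counting error was not tested.

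**Figure D2:**
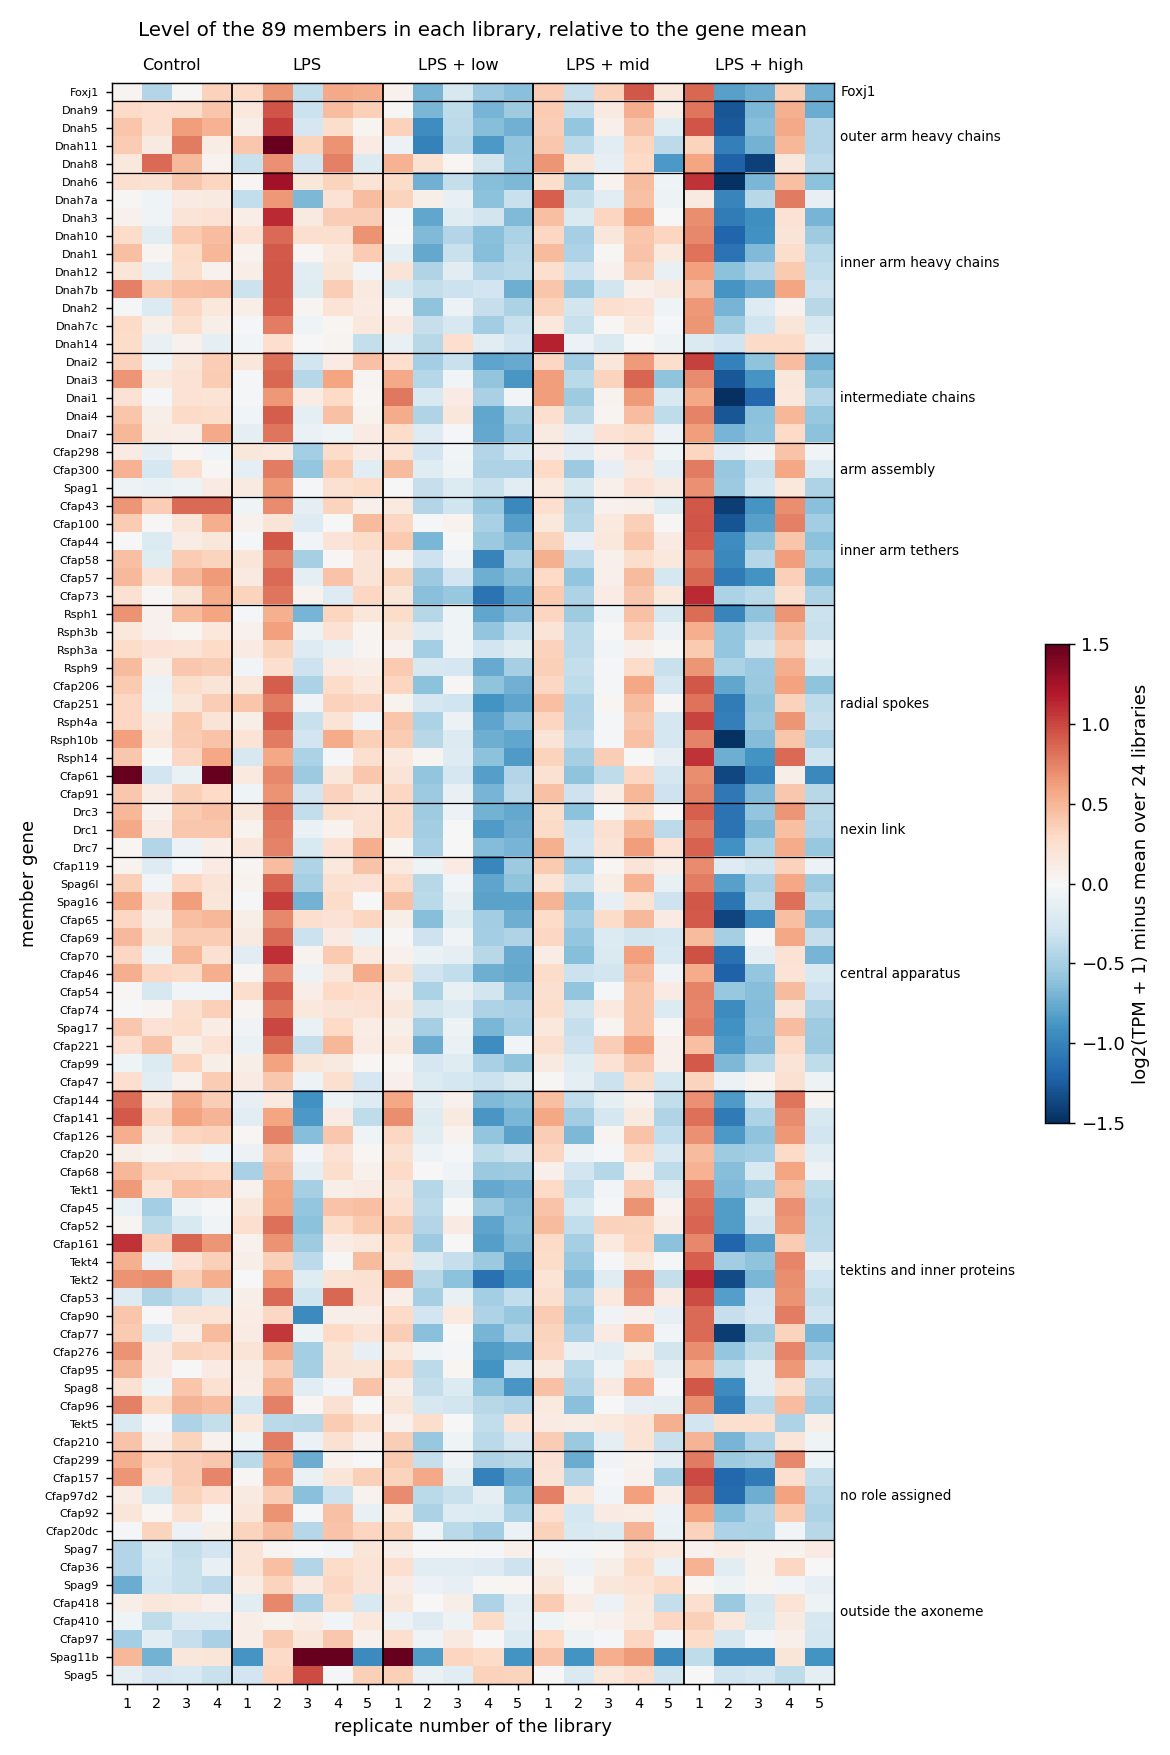
Level of the 89 members (rows, grouped by role) in the 24 libraries (columns, by group), as log2(TPM + 1) minus the mean of the gene over all libraries. Most axoneme members share 1 colour within a library, red in LPS replicate 2 and high dose replicate 1 and blue in high dose replicate 2, while the 8 members outside the axoneme at the bottom do not.

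Foxj1, the regulator of the module, was found at 73.9, 53.0, 73.2 and 91.7 TPM in the 4 control lungs and at 88.0, 115, 55.5, 107 and 106 TPM in the 5 LPS lungs. With extract its values were 75.3, 44.0, 60.9, 49.0 and 46.4 TPM in low dose lungs, 93.4, 56.7, 92.3, 138 and 81.0 TPM in mid dose lungs and 132, 40.4, 43.1, 92.5 and 42.9 TPM in high dose lungs. Every group overlapped the controls, and the high dose group split into 2 libraries above 90 TPM and 3 libraries near 40 TPM. The log2 difference between LPS and control was 0.35 (SE 0.31) as deposited and -0.32 (SE 0.28) after scaling, so its direction depended on the scale and neither passed (limma adjusted p = 0.357 and 0.398). Against LPS alone the low dose gave -0.75 (adjusted p = 0.0982; scaled -0.52, adjusted p = 0.337) and the high dose -0.55 (adjusted p = 0.167; scaled -0.24, adjusted p = 0.638), and neither passed.

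The start regions of the axoneme members are shown because RFX factors and Foxj1 act at such sequences. The RefSeq promoter table (build GRCm38.p6) held 67 of the 81 axoneme members, and the 250 bases before each start were searched on both strands for the RFX half-site GTTGCC and the forkhead core TGTTTAC. The half-site was found in 23 of the 67 (34.3%) and in 11.8% of the 27025 genes of the table. The forkhead core was found in 2 of the 67 (2.99%) and in 3.54% of all genes. The 4 windows below belong to genes that the results return to: the inner proteins Cfap144 and Cfap161 and the tektin Tekt1, with 2, 3 and 2 half-sites, and the outer arm dynein Dnah11, with none. They lie on the minus strand at chr11:58801961-58802210, chr7:83794840-83795089, chr11:72361883-72362132 and chr12:118199044-118199293. Capitals mark GTTGCC or, where the match is on the other strand, GGCAAC, and a match is a description of the letters, not a shown binding site.
Cfap144: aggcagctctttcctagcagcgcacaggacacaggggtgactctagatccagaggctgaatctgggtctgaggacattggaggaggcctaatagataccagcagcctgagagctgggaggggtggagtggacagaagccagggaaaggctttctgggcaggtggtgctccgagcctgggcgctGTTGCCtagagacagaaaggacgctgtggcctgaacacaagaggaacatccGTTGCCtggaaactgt
Cfap161: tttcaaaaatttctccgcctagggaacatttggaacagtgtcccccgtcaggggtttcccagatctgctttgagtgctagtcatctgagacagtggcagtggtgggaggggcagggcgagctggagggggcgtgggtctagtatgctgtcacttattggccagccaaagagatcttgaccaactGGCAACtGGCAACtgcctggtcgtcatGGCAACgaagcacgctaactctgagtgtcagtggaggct
Tekt1: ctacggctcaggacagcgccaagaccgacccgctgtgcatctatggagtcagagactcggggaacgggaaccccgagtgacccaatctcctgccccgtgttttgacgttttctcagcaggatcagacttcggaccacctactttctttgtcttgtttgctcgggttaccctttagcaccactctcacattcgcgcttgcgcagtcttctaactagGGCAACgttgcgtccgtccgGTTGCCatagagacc
Dnah11: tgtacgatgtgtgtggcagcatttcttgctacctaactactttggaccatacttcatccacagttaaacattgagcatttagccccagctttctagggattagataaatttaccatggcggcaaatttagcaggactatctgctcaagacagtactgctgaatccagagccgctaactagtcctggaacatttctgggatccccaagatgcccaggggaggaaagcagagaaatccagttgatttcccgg

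LPS lungs were first compared with control lungs, to describe the challenge without extract. As deposited, 6 of the 89 members were higher (background 56.2% of all genes tested) and 1 was lower (background 1.86%), with a median log2 difference of -0.03 where the median of all genes was 0.55. All 6 that rose are among the 8 members outside the axoneme, and the 1 that fell is the inner protein Cfap144, so none of the 81 axoneme members passed in the direction of most genes. After scaling, 30 of the 89 fell (background 14.2%) and none rose (background 13.8%), with a median of -0.60 against 0.00 for all genes. Of the 81 axoneme members 28 fell, and 80 of 81 had a value below 0. As deposited, all LPS libraries lay on 1 side of all control libraries for 5 members that were higher (background 49.7%), of which 1, the central apparatus protein Cfap54, belongs to the axoneme, and for 1 that was lower (background 1.48%). After scaling this held for 27 that were lower (background 13.5%) and for none that was higher (background 14.2%).

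The count of members that fell depended on the libraries. Without the 7 challenged libraries with little Cxcl2, 18 members fell as deposited (background 5.27%) and 69 after scaling (background 23.3%), while 5 rose as deposited (background 54.6%) and none after scaling (background 24.2%), with medians of -0.24 and -0.75 against 0.49 and 0.00 for all genes. The LPS group then held only replicates 1, 3 and 5, and replicates 1 and 3 held muscle transcripts. Because the libraries left out had the highest axoneme sums of their groups, larger counts of falls can follow from that choice itself. Without the 3 libraries with muscle transcripts, 0 fell as deposited (background 1.27%) and 10 after scaling (background 8.04%), while 6 rose as deposited (background 54.4%) and 0 after scaling (background 7.29%). Leaving out 1 library at a time gave 14 to 42 members that fell after scaling, the fewest without control replicate 1 (14) and LPS replicate 3 (18). As deposited it gave 0 to 3, with 2 without control replicate 2, 3 without LPS replicate 2 and 0 without 14 of the other libraries. For these fits the share of all genes is not given, so whether the counts moved with all genes was not tested. Rescaling every library without Scgb1a1 gave 9 members that fell (background 5.76%) and 1 that rose (background 31%).

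**Figure D3:**
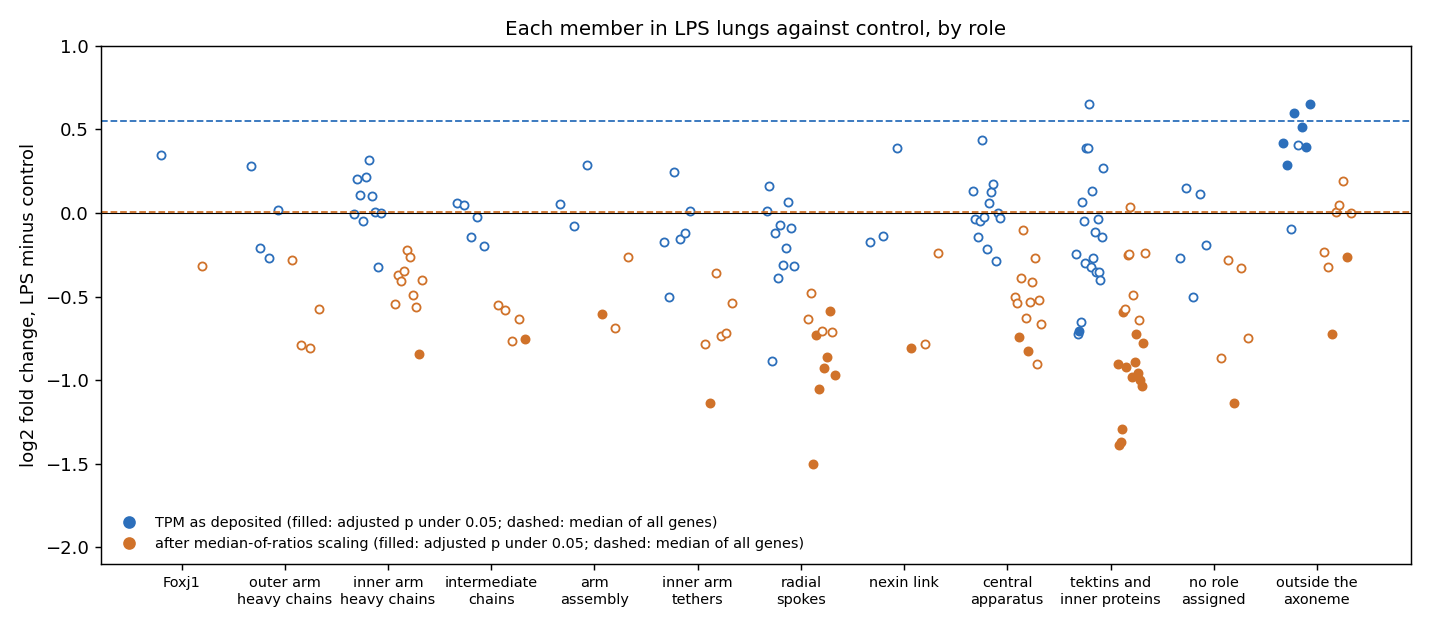
Log2 fold change of each member between LPS and control lungs, by role, for the TPM as deposited (blue) and after scaling (orange). Filled points passed at an adjusted p of 0.05 and the dashed lines give the median of all genes, 0.55 and 0.00. Nearly all axoneme members lie below the dashed line of their own colour, and the filled orange points gather among radial spokes, tektins and inner proteins.

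Proteins inside the doublet microtubules held the lowest scaled median of the role lists. Of 20 tektins and microtubule inner proteins, 1 fell as deposited (1.86% of all genes) and 13 after scaling (14.2% of all genes), with a median of -0.84 and a range of -1.39 to 0.03. Cfap144, the most abundant axoneme member, had 168, 104, 136 and 121 TPM in control lungs and 85.5, 103, 49.2, 88.2 and 81.3 TPM in LPS lungs. All LPS libraries lay below all control libraries, by a log2 difference of -0.71 (SE 0.30, limma adjusted p = 0.0495) and of -1.37 (SE 0.29, adjusted p = 0.0018) after scaling. The deposited call was close to its threshold and was lost in 15 of the 24 fits that each left out 1 library. With extract Cfap144 had 139.6, 83.7, 97.0, 58.5 and 60.3 TPM in low dose lungs, 128, 71.9, 83.8, 97.1 and 72.0 TPM in mid dose lungs and 149.9, 51.1, 75.1, 162 and 95.3 TPM in high dose lungs, and each of these groups overlapped both the control and the LPS group. Cfap141, another inner protein, had 103 ± 18.4 TPM in control and 64.7 ± 24.8 TPM in LPS lungs, with a scaled difference of -1.39 (adjusted p = 0.00569) that was -0.73 (adjusted p = 0.0971) as deposited. Cfap161, whose window above holds 3 half-sites, went from 25.8 ± 5.63 to 16.3 ± 5.06 TPM, with a scaled difference of -1.29 (adjusted p = 0.00489; deposited -0.65, adjusted p = 0.102). The tektins Tekt1, Tekt2 and Tekt4, filament proteins along the doublet, fell by 1.00, 1.03 and 0.78 on the scaled log2 scale and did not pass as deposited.

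Radial spokes reach from the doublets to the central pair. None of their 11 members passed as deposited and 7 fell after scaling (14.2% of all genes), with a scaled median of -0.73. Rsph1, a protein of the spoke head, had 90.2, 58.8, 78.7 and 85.0 TPM in control lungs and 55.3, 81.6, 34.2, 70.7 and 63.3 TPM in LPS lungs, where 3 of the 5 LPS libraries lay within the control range and 2 below it. With extract it had 68.4, 41.5, 53.5, 32.3 and 35.4 TPM in low dose lungs, 70.7, 38.6, 53.9, 76.3 and 47.5 TPM in mid dose lungs and 101, 27.7, 36.6, 89.4 and 44.6 TPM in high dose lungs. Its difference between LPS and control was -0.39 (adjusted p = 0.32) as deposited and -1.05 (SE 0.30, adjusted p = 0.0131) after scaling. Rsph3b, a stalk protein, was at 35.8 ± 1.69 TPM in control and 38.1 ± 7.76 TPM in LPS lungs, and the scaled difference of -0.59 passed (adjusted p = 0.0207) while the deposited value was 0.07, so its direction depended on the scale. Rsph3a and Rsph3b are near-identical copies, as are Dnah7a, Dnah7b and Dnah7c, so the way reads were divided among them is uncertain. Cfap61, which anchors a spoke, was uneven among controls, at 51.5, 5.61, 6.53 and 29.9 TPM, and at 7.93, 12.2, 4.51, 8.03 and 9.67 TPM in LPS lungs, with a scaled difference of -1.50 (adjusted p = 0.0308) and 2 control libraries within the LPS range.

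Dynein motor chains are read against the same 14.2% of all genes that fell after scaling. Of 4 outer arm heavy chains none passed as deposited or after scaling, and of 10 inner arm heavy chains none passed as deposited and 1, Dnah7b, fell after scaling (-0.85, SE 0.27, adjusted p = 0.0233). Dnah9, the most abundant outer arm chain, had 6.76, 6.57, 6.63 and 7.50 TPM in control and 6.07, 11.3, 4.07, 7.79 and 7.18 TPM in LPS lungs, a range that enclosed the controls, and its difference was 0.02 as deposited and -0.58 after scaling. Dnah5, the outer arm chain along the whole cilium, was at 6.32 ± 0.82 TPM in control and 5.61 ± 2.54 TPM in LPS lungs. Dnah6, the most abundant inner arm chain, had 6.45, 6.42, 7.39 and 6.89 TPM in control and 5.47, 14.1, 6.12, 6.99 and 6.31 TPM in LPS lungs, where replicate 2 stood far above the rest, and its difference was 0.10 as deposited and -0.49 after scaling. The direction of both depended on the scale. Dnah7a was at 5.36 ± 0.403 and 5.76 ± 2.44 TPM. Dnai2, an intermediate chain of the outer arm, had 16.0, 11.8, 14.2 and 16.2 TPM in control and 14.0, 22.8, 10.1, 13.6 and 17.1 TPM in LPS lungs, with the groups overlapping (0.05, scaled -0.58). Dnai3, an inner arm intermediate chain, was at 13.3 ± 2.33 and 12.5 ± 4.84 TPM. Of the 5 intermediate chains none passed as deposited and 1 fell after scaling.

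Assembly, tether, link and central pair proteins are read against the 14.2% of all genes that fell after scaling. Cfap298, needed to assemble dynein arms in the cytoplasm, had 51.1, 42.8, 47.8 and 44.6 TPM in control and 53.1, 52.2, 32.5, 57.1 and 51.2 TPM in LPS lungs, 0.06 as deposited (adjusted p = 0.777) and -0.60 after scaling (adjusted p = 0.00373), so its direction depended on the scale. Cfap300, with the same role, was at 9.20 ± 2.36 and 8.99 ± 3.76 TPM and passed on neither scale. Cfap43, which tethers an inner arm dynein, had 18.1, 14.6, 20.8 and 20.8 TPM in control and 10.5, 18.7, 9.91, 14.2 and 11.8 TPM in LPS lungs, and the scaled difference of -1.14 passed (adjusted p = 0.0132; deposited -0.50, adjusted p = 0.227). Only LPS replicate 2 reached the control range of Cfap43. Cfap100, a regulator of the same arm, was at 10.5 ± 1.82 and 9.23 ± 1.82 TPM. Drc3, of the nexin-dynein regulatory complex, had 33.8, 24.9, 31.4 and 32.6 TPM in control and 26.8, 42.1, 18.1, 28.2 and 27.9 TPM in LPS lungs, with the groups overlapping (-0.14, scaled -0.79). Drc1, the scaffold of that complex, was at 18.1 ± 2.36 and 16.3 ± 4.48 TPM, with a scaled difference of -0.81 (adjusted p = 0.0404). Cfap119 of the central apparatus had 17.8, 14.9, 16.9 and 18.8 TPM in control and 17.6, 23.9, 12.2, 19.3 and 23.4 TPM in LPS lungs, with the groups overlapping (0.13, scaled -0.50). Spag6l, also there, was at 17.7 ± 2.24 and 18.1 ± 6.6 TPM. Of 13 central apparatus members none passed as deposited and 2 fell after scaling, against 1 of 3 link proteins, 1 of 6 tethers and 1 of 3 assembly proteins. The 5 members without an assigned role included 1 that fell after scaling, Cfap299.

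Of the 8 members outside the axoneme 6 rose as deposited (background 56.2%), and 2, Spag7 and Cfap418, fell after scaling (background 14.2%). Spag7 had 49.1, 57.9, 52.0 and 54.5 TPM in control and 76.5, 69.0, 66.6, 65.0 and 75.7 TPM in LPS lungs, with no overlap. It passed in both fits with opposite signs, at 0.40, SE 0.07, adjusted p = 5.59e-05 as deposited and -0.26, SE 0.08, adjusted p = 0.022 after scaling. Spag9, a scaffold of JNK signalling and motor transport, was at 28.3 ± 4.07 and 44.8 ± 3.2 TPM, 0.65 as deposited (adjusted p = 2.62e-06) and 0.00 after scaling (SE 0.06, adjusted p = 1). Cfap97 (0.60, adjusted p = 0.000485) and Cfap36 (0.42, adjusted p = 0.0254) also rose as deposited and did not pass after scaling. Spag5, the spindle protein astrin, rose by 0.51 as deposited (adjusted p = 0.0279) from 0.66 ± 0.0907 to 1.48 ± 0.863 TPM. All 6 genes of a list of markers of dividing cells rose as deposited in the same comparison (background 56.2%), and 2 of them after scaling (background 13.8%).

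Foxj1 offers a measure that needs no scaling, since the ratio of a member to Foxj1 within a library does not depend on the other genes. This measure was chosen after the values were seen. For 16 of the other 80 axoneme members the ratio to Foxj1 was lower in all LPS libraries than in any control library (background 2.58% of all genes), and for none was it higher (background 5.87%). Against the same controls the count was 9 lower at the low dose (background 0.825%), 30 lower at the mid dose (background 2.77%) and 8 lower at the high dose (background 1.54%), and the ratio was higher for 2, 0 and 1 members (backgrounds 28.6%, 6.58% and 2.06%). The ratio of Cfap144 to Foxj1 was 1.31 to 2.27 in control lungs and 0.768 to 0.971 in LPS lungs. With extract it was 1.19 to 1.90, 0.704 to 1.37 and 1.14 to 2.22 at the low, mid and high dose, so the low and high dose libraries lay above all LPS libraries and the mid dose libraries did not. The ratio of Cfap161 was 0.260 to 0.438 in control and 0.149 to 0.209 in LPS lungs, and 0.160 to 0.240, 0.114 to 0.194 and 0.146 to 0.254 at the low, mid and high dose, all below the controls. Against LPS alone the ratio was higher without overlap for 5 axoneme members at the low dose (background 5.28%), for none at the mid dose (background 0.0449%) and for 4 at the high dose (background 0.606%). At the low dose these were Cfap144, Cfap90, Cfap298, Cfap299 and Tekt5, and at the high dose Cfap144, Cfap90, Cfap299 and Tekt4. The comparisons share the LPS libraries. Error in Foxj1 itself enters every such ratio. Axoneme members varied together between mice, so division by Foxj1 can remove a spread that they share with it. For unrelated genes it adds the spread of Foxj1 instead. The shares of all genes are thus not a like background for these counts.

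**Figure D4:**
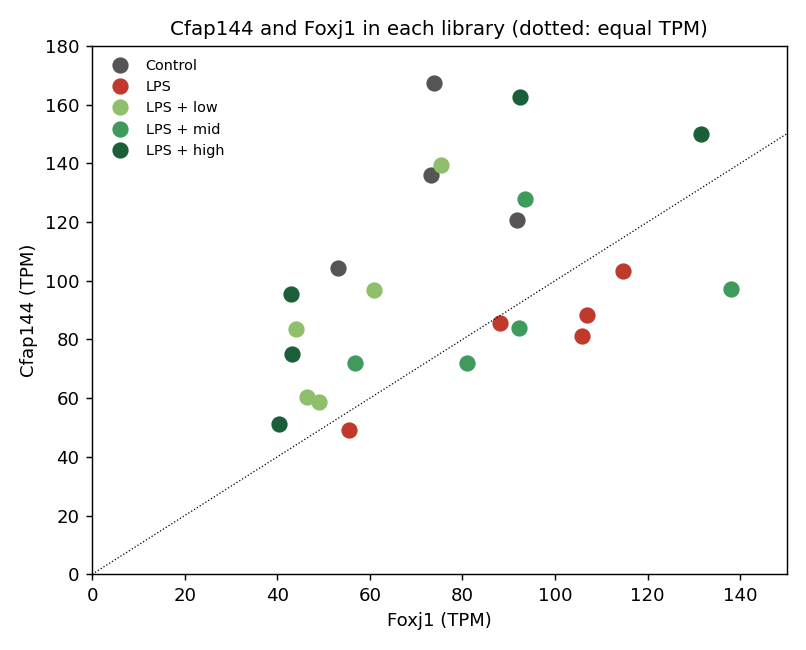
Level of Cfap144 against Foxj1 in each of the 24 libraries, both in TPM, coloured by group, with a dotted line where both are equal. All LPS points lie under the line and all control points above it, while low and high dose points lie above it.

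The extract doses were then each compared with LPS alone, to describe challenged lungs with and without extract. At the low dose 2 members fell as deposited, Dnah11 and Dnah10 (background 9.38%), and none rose (background 1.23%), although 87 of 89 values were below 0, with a median of -0.46 against -0.20 for all genes. After scaling 1 fell, Dnah11 (background 0.55%), and none rose (background 1.74%), with a median of -0.26 against -0.01. At the mid dose no member passed (background 0%), 1 member had an unadjusted p under 0.05 as deposited and 1 after scaling, and the median was -0.14 against -0.04. At the high dose 5 members fell as deposited, Dnah11, Dnah10, Dnah3, Spag5 and Spag9 (background 25.5%), none rose (background 2.05%), and the median of -0.29 was near the -0.27 of all genes. After scaling 1 member rose, Spag7 (background 5.67%), and none fell (background 3.27%). As deposited, every library with extract lay below every LPS library for 5 members at the low dose (background 8.92%), for 1 at the high dose (background 9.47%) and for none at the mid dose (background 0.151%).

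The libraries with little Cxcl2 weighed on these counts too. Without them 16 members fell at the low dose as deposited (background 10.1%) and 3 after scaling (background 2.42%), and none rose (backgrounds 1.95% and 3.79%). At the high dose 45 fell and none rose as deposited (backgrounds 29.1% and 4.87%), with a median of -0.57 against -0.27 for all genes, and 12 fell and 1 rose after scaling (backgrounds 10.7% and 14.1%), with a median of -0.35 against -0.01. At the mid dose 0 fell as deposited and after scaling (background 0.00561%). Leaving out high dose replicate 1 alone gave 29 members that fell at the high dose as deposited, while leaving out LPS replicate 2, high dose replicate 2 or high dose replicate 5 gave 0, LPS replicate 4 or high dose replicate 3 gave 1, LPS replicate 5 gave 2 and high dose replicate 4 gave 3. Leaving out high dose replicate 1 also gave 11 members that fell at the low dose, which that replicate enters only through the shared estimate of spread, and leaving out low dose replicate 1 or high dose replicate 2 gave 4, low dose replicate 2 gave 0 and 12 of the other libraries gave 1. The share of all genes is not given for the fits that each left out 1 library. Whether their counts concern the members or all genes was not tested.

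**Figure D5:**
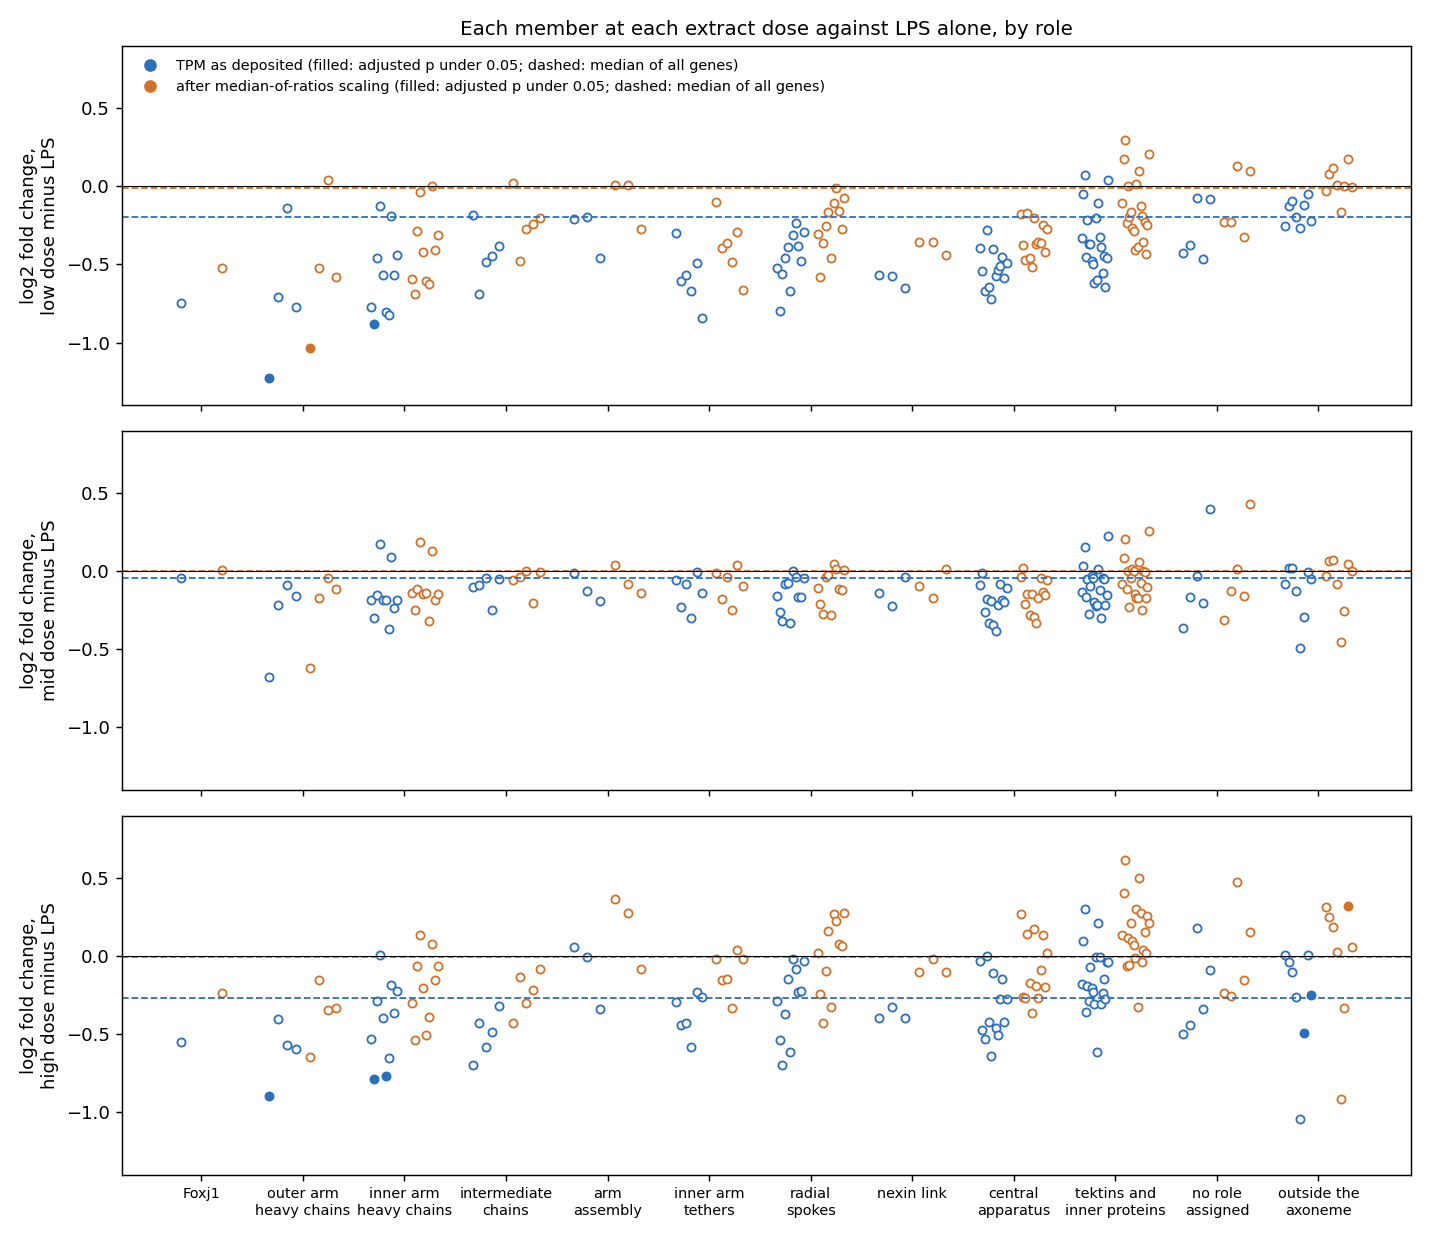
Log2 fold change of each member at the low, mid and high dose against LPS alone, by role, for the TPM as deposited (blue) and after scaling (orange). Filled points passed at an adjusted p of 0.05 and dashed lines give the median of all genes. The filled points that are lower at the low dose are the heavy chains Dnah11 and Dnah10, and no point is filled at the mid dose.

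The 2 members called at the low dose as deposited were dynein heavy chains, 1 of 4 outer arm and 1 of 10 inner arm chains (background 9.38%). At the high dose 1 of 4 and 2 of 10 fell as deposited (background 25.5%). Dnah11, an outer arm chain at the base of the cilium, had 4.69, 12.2, 4.42, 5.86 and 3.69 TPM in LPS lungs and 4.61, 3.71, 6.36 and 3.64 TPM in control lungs. With extract it had 3.04, 1.13, 2.21, 1.37 and 1.86 TPM in low dose lungs, 4.67, 2.24, 2.86, 4.38 and 2.28 TPM in mid dose lungs and 4.40, 1.12, 1.64, 5.08 and 2.16 TPM in high dose lungs. All low dose libraries lay below all LPS libraries, with a difference of -1.22, SE 0.30, adjusted p = 0.0199 as deposited and -1.03, SE 0.27, adjusted p = 0.0485 after scaling. The high dose overlapped LPS, with -0.90 (adjusted p = 0.0285) as deposited and -0.65 (adjusted p = 0.15) after scaling. The low dose call was lost without low dose replicate 2, with upper-quartile scaling and without a filter on low values, and was kept at an adjusted p of 0.05 in the other 32 of 35 refits. The call after scaling was lost in 20 of the 24 fits that each left out 1 library, all but those without low dose replicate 1, or high dose replicate 1, 2 or 4. Dnah11 was the only member to pass the test of any dose against LPS as deposited (background 22.2%), and after scaling the only one was Spag7 (background 7.2%).

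Dnah10, an inner arm chain, had 4.95, 8.27, 5.06, 5.04 and 7.15 TPM in LPS lungs and 4.16, 2.25, 2.79, 2.31 and 2.68 TPM in low dose lungs, with no overlap (-0.88, SE 0.28, adjusted p = 0.0444), a call lost in 13 of the 24 fits that each left out 1 library. At the high dose it had 7.47, 1.25, 1.72, 4.85 and 2.53 TPM, -0.79 (adjusted p = 0.0382), with the libraries of both groups overlapping. Dnah3, another inner arm chain, had 5.32, 11.8, 5.48, 6.63 and 6.63 TPM in LPS lungs, 4.78, 2.45, 4.22, 3.87 and 2.74 TPM at the low dose and 8.55, 1.85, 2.13, 5.87 and 2.65 TPM in high dose lungs. Its low dose libraries lay below all LPS libraries without passing (-0.80, adjusted p = 0.0617), and at the high dose it passed with overlap (-0.77, adjusted p = 0.0423). Neither Dnah10 nor Dnah3 passed after scaling. The more abundant chains did not pass at any dose, and overlapped the LPS group at each of them. Dnah9 had 5.46, 2.96, 3.88, 2.93 and 3.40 TPM in low dose lungs, 7.28, 3.98, 6.00, 8.30 and 5.74 TPM in mid dose lungs and 10.1, 1.61, 3.00, 8.22 and 2.81 TPM in high dose lungs. Dnah6 had 6.67, 2.85, 3.94, 3.05 and 2.96 TPM in low dose lungs, 6.57, 3.30, 5.56, 7.71 and 5.06 TPM in mid dose lungs and 12.4, 1.27, 2.92, 7.64 and 3.13 TPM in high dose lungs.

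Heavy chains have the longest transcripts of the set, at 12009 to 16685 bases for the 14 chains. Their median difference at the low dose was -0.64 as deposited, against -0.34 for the 150 genes with transcripts as long and -0.37 for the 21 axoneme members under 2000 bases, whose counterparts among all genes were at -0.07. At the high dose the 14 chains were at -0.47 and the 150 long genes at -0.46, and the short members at -0.07 and short genes at -0.09. At the low dose the medians of both length classes of axoneme members lay under those of genes of their own length, and at the high dose they lay next to them. In LPS against control, after scaling, the 14 chains were at -0.45 and the 150 long genes at -0.03. There the short members were at -0.87 and short genes at -0.15. What part transcript length has in these differences, and in those between role lists, was not tested.

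No axoneme member with another role passed at any dose. At the low dose all 11 radial spoke members, all 13 central apparatus members, all 5 intermediate chains, all 6 tethers, all 3 link proteins and 18 of 20 tektins and inner proteins were below 0 as deposited, with medians of -0.46, -0.54, -0.44, -0.59, -0.58 and -0.38. Most genes went the same way, with 13610 of all 17823 below 0 and a median of -0.20. After scaling 11, 13, 4, 6, 3 and 14 members of these lists were below 0, against 9165 of all genes. Their scaled medians were -0.26, -0.36, -0.24, -0.38, -0.36 and -0.19, against -0.01 for all genes. The 81 axoneme members together had low dose medians of -0.47 as deposited and -0.27 after scaling. The 11 tested ciliated cell markers had -0.16 and 0.06, with 8 and 5 of them below 0, and none passed. Dnai2 had 14.9, 8.43, 9.58, 6.71 and 6.91 TPM in low dose lungs, 15.6, 8.35, 14.0, 19.9 and 15.0 TPM in mid dose lungs and 26.3, 5.63, 7.78, 17.5 and 7.16 TPM in high dose lungs. Drc3 had 29.1, 16.1, 22.4, 14.1 and 13.5 TPM in low dose lungs, 28.7, 15.1, 23.9, 29.0 and 23.8 TPM in mid dose lungs and 45.2, 10.4, 15.4, 38.1 and 17.6 TPM in high dose lungs. Both overlapped the LPS group at every dose, and the 2 high dose libraries with little Cxcl2 held their highest values. Cfap43 had 12.3, 7.92, 8.84, 7.15 and 5.15 TPM in low dose lungs, 13.4, 7.84, 11.6, 11.8 and 9.64 TPM in mid dose lungs and 22.1, 3.53, 5.53, 18.5 and 6.79 TPM in high dose lungs. Cfap298 had 54.0, 38.2, 45.4, 34.4 and 38.8 TPM in low dose lungs, 51.1, 41.7, 48.9, 54.7 and 45.0 TPM in mid dose lungs and 59.0, 41.8, 45.1, 63.4 and 45.7 TPM in high dose lungs. Cfap119 had 19.1, 16.2, 18.7, 8.22 and 11.4 TPM in low dose lungs, 22.9, 11.7, 17.6, 19.7 and 18.4 TPM in mid dose lungs and 28.7, 14.9, 14.0, 22.1 and 16.0 TPM in high dose lungs, and these 3 genes too overlapped the LPS group at every dose. Spag7 had 71.0, 66.6, 66.8, 65.9 and 70.7 TPM in low dose lungs, 65.8, 66.0, 68.3, 77.2 and 74.7 TPM in mid dose lungs and 70.0, 72.5, 69.4, 69.3 and 72.6 TPM in high dose lungs. No member passed a linear trend over the doses in limma, as deposited (background 0.774% higher and 7.63% lower) or after scaling (1.32% higher and 0.32% lower), with 3 and 4 members at an unadjusted p under 0.05. Without the libraries with little Cxcl2, 25 fell with dose as deposited (background 17.8%) and none rose (background 3.24%), and after scaling 7 fell (background 6.13%) and 1 rose (background 9.9%).

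The 15 challenged mice with extract were also compared with the controls, a comparison that shares its controls with that of LPS. As deposited 11 members fell (background 2.32%) and 3 rose (background 51.5%), with a median of -0.36 against 0.38 for all genes. After scaling 70 of 89 fell (background 17.5%) and none rose (background 18.1%), with a median of -0.79 against 0.00. Of the 81 axoneme members 11 fell as deposited and 69 after scaling, among them all 11 radial spoke members, all 5 intermediate chains, all 4 outer arm heavy chains, all 3 assembly proteins, 11 of 13 central apparatus members, 8 of 10 inner arm heavy chains and 16 of 20 tektins and inner proteins. Cfap161 had a log2 difference of -0.98, SE 0.28, adjusted p = 0.00562 as deposited and -1.43, SE 0.26, adjusted p = 0.000797 after scaling, from 25.8 ± 5.63 TPM in control to 11.8 ± 4.35, 14.5 ± 4.5 and 13.8 ± 8.08 TPM at the low, mid and high dose. The deposited call held at an adjusted p of 0.05 in all 35 refits, but the change did not reach the log2 change of 1 tried as a further threshold for the counts. Cfap43 (-0.93, adjusted p = 0.0107), Dnah7b (-0.71, adjusted p = 0.0152) and Cfap61 (-1.41, adjusted p = 0.00683) also fell as deposited. Foxj1 did not pass, at -0.10 (adjusted p = 0.771) and, scaled, -0.57 (adjusted p = 0.0608). The 3 that rose as deposited, Spag7, Spag9 and Cfap97, are outside the axoneme, and none of them passed after scaling. Without the libraries with little Cxcl2, 71 members fell and 4 rose as deposited (backgrounds 10.5% and 51.4%), and 80 fell and none rose after scaling (backgrounds 27.5% and 27.9%). Here too the libraries left out held the highest axoneme sums of their groups, so larger counts of falls can follow from that choice. Leaving out control replicate 1 gave 39 that fell after scaling and 2 as deposited. As deposited, leaving out control replicate 3 or 4 gave 6, low dose replicate 4, mid dose replicate 2 or high dose replicates 3 or 5 gave 7, low dose replicate 1 gave 19, high dose replicate 4 gave 21 and high dose replicate 1 gave 30. These counts also stand without the share of all genes, so a change over all genes was not tested.

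Genes of the same machinery that the names do not catch were read from further lists. In LPS against control 1.86% of all genes fell and 56.2% rose as deposited, and 14.2% fell after scaling. Of 18 other dynein chains, docking proteins and linked proteins, 1 fell in LPS against control as deposited and 10 after scaling, with a scaled median of -0.74. The light chain Dynlrb2 had 235 ± 33.3 TPM in control and 126 ± 28.5 TPM in LPS lungs, and fell on both scales (-0.92, adjusted p = 0.0264; scaled -1.58, adjusted p = 0.00143). Nme5, a spoke protein in the same list, had 54.3 ± 9.35 and 41.2 ± 15 TPM, and fell after scaling (-1.11, adjusted p = 0.0173). Iqcd, of the nexin-dynein regulatory complex, fell after scaling (-1.22, SE 0.28, adjusted p = 0.00363). Of 18 other inner and associated axoneme proteins, 1 rose as deposited, the kinase Stk36 (0.69, adjusted p = 0.0157), and 11 fell after scaling, among them Ak8 (-1.08) and Pierce2 (-1.04). Its most abundant genes, Pierce1 and Lrrc23, had 54.1 ± 9.11 and 67.6 ± 15.6 TPM in control and 48.0 ± 11.2 and 54.1 ± 22.3 TPM in LPS lungs.

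Assembly factors, regulators and transport genes are read against the 56.2% of all genes that rose and the 1.86% that fell as deposited. After scaling the shares were 13.8% that rose and 14.2% that fell. Of 15 dynein assembly factors 3 rose as deposited and 7 fell after scaling. Dnaaf5 (0.92, adjusted p = 6.3e-05) and Dnaaf9 (0.76, adjusted p = 5.41e-05) rose as deposited, did not pass after scaling, and fell against LPS at the low dose (-0.56 and -0.40) and the high dose (-0.49 and -0.56) as deposited. Of 10 tested regulators of multiciliation, 3 rose and none fell as deposited, and 1 rose and 4 fell after scaling. E2f4, a factor that acts early in that programme and in many other cells, rose on both scales (1.27, adjusted p = 2.54e-07; scaled 0.62, adjusted p = 0.0039), and Ccno, a cyclin-like protein of multiciliated precursors, fell after scaling (-0.72, adjusted p = 0.00517). Of 24 genes of intraflagellar transport, which builds cilia of all kinds, 8 rose and 1 fell as deposited, and 5 fell after scaling. The motor subunit Kif3b rose as deposited (0.91, adjusted p = 5.96e-07), Ift25 fell after scaling (-1.11, adjusted p = 0.00028), and the abundant Ift20 (80.4 ± 4.18 TPM in control) passed with opposite signs, 0.35 as deposited and -0.31 after scaling. Ift43 (92.7 ± 4.42 TPM in control) fell after scaling (-0.77, adjusted p = 0.000489) and rose after scaling at the high dose against LPS by 0.52 (adjusted p = 0.0154).

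In the extract groups against control these lists had 17 of 18 dynein and docking genes, 17 of 18 associated proteins, 12 of 15 assembly factors, 5 of 10 regulators and 9 of 24 transport genes that fell after scaling (17.5% of all genes), and 3, 2, 2, 1 and 0 as deposited (2.32% of all genes). Against LPS alone, as deposited, 0, 1, 2, 0 and 2 of them fell at the low dose (9.38% of all genes) and 0, 0, 2, 2 and 1 at the high dose (25.5% of all genes). At the mid dose none of these genes passed on either scale.

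Markers of airway cells were read in LPS against control. There 1.86% of all genes fell and 56.2% rose as deposited, and 14.2% fell and 13.8% rose after scaling. Of 11 tested ciliated cell markers, 3 of which also stand in the dynein list, 3 fell in LPS against control as deposited and 7 after scaling, with medians of -0.39 and -1.04. Their summed level was 1785 to 2174 TPM in control, 1032 to 2068 TPM in LPS, 768 to 2159.9 TPM in low dose, 1143 to 2076 TPM in mid dose and 794 to 2667 TPM in high dose libraries. Of 10 club cell markers 5 fell as deposited and 6 after scaling, with medians of -1.54 and -2.21. Of 3 tested airway basal cell markers 1 rose as deposited and 0 after scaling, with medians of 2.08 and 1.64. They summed to 0.91 to 5.23 TPM in control libraries and to 69.1 and 125 TPM in LPS replicates 3 and 1, at 41.9 TPM in low dose replicate 5 and 35.1 TPM in high dose replicate 4, and at 11.5 TPM or less in the other challenged libraries. Summed neutrophil markers were at 118 to 187 TPM in control and 570 to 12599 TPM in LPS libraries. They were at 1478 to 3920 TPM in low, 255 to 7368 TPM in mid and 208 to 11834 TPM in high dose libraries. The part of any of these cells, neutrophils among them, in the values of the members was not tested.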

How the data were processed

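Lungs of 24 mice were profiled by RNA sequencing, and the authors deposited 1 table of TPM per gene with 24 library columns and 78298 genes. Per the submitters' processing notes the tools were HISAT2, StringTie, RSEM and DESeq2 and the build GRCm39, with no role or version given. Libraries were matched to groups by their labels, and no columns of other samples were present. TPM have no counts behind them, so depth and counting error are unknown and no count model was used; no interval was given for single libraries. TPM add to a fixed total, so a change in a very abundant gene moves all others.

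The test used the 17823 genes that reached 1 TPM in no fewer than 4 libraries, on log2(TPM + 1), which understates changes of low genes, with limma 3.58.1 in R 4.3.3 (empirical Bayes with trend), all 5 groups in 1 fit, and Benjamini-Hochberg adjustment over all genes at 0.05. The scripts were tested on simulated data. Scaled values were divided by median-of-ratios factors. The members and lists were chosen with earlier results of these data known. Named genes are Foxj1, the 2 most abundant members of each role list, the 4 members with the smallest p and the 4 with the largest change among those that passed in each comparison, members that passed with opposite signs on both scales, and, of each further list, the 2 most abundant genes and the 2 with the smallest p. Others named were chosen after their values were seen. Alternatives were other scalings, filters and pseudocounts, a fit of only the groups compared, sample weights, a replicate block, a fold threshold, and leaving out libraries. Transcript lengths came from GENCODE M21, which held 88 of the 89 members, and promoters from RefSeq on GRCm38.p6, a build other than that of the table. That table held 72 of the 89 members, 15 of them under an older symbol, and Cfap144 is listed there as Fam183b. Promoters of Foxj1, Rsph1 and Cfap141 were not used here.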

Additional observations from a re-analysis of the deposited data

Results flagged for a closer look

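For 31 quantities, the named members and summed levels, each of the 5 groups was searched for a library far from the others of its group, by the gap to its nearest neighbour as a share of the range (Dixon's ratio at the 95% level). Of 155 groups 7 held such a library, where chance gives about 1 in 20. In LPS replicate 2, Dnah11 was at 12.15 TPM against 3.69 to 5.86 TPM in the other 4 LPS libraries, Dnah3 at 11.82 TPM against 5.32 to 6.63 TPM, and Dnah6 at 14.08 TPM against 5.47 to 6.99 TPM. In LPS replicate 3, the assembly protein Cfap298 was at 32.53 TPM against 51.24 to 57.07 TPM. In low dose replicate 1, Dnah10 was at 4.16 TPM against 2.25 to 2.79 TPM, Dnah6 at 6.67 TPM against 2.85 to 3.94 TPM, and Cfap36 at 53.07 TPM against 35.64 to 39.95 TPM. LPS replicate 2 and low dose replicate 1 are among the 7 challenged libraries with little Cxcl2, and LPS replicate 3 is among the 3 with muscle transcripts.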

How the results depend on the processing

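Library scaling moved the counts of both comparisons with control. In LPS against control, the 6 members that rose became 0 after median-of-ratios scaling, 0 after upper-quartile scaling and 1 without Scgb1a1, and the 1 that fell became 30, 32 and 9. For the extract groups against control, the 3 that rose became 0, 0 and 0 and the 11 that fell became 70, 73 and 55 (9.6% of all genes without Scgb1a1). At the low dose against LPS the 2 that fell became 1, 0 and 1 (8.54% of all genes without Scgb1a1). At the high dose the 5 that fell became 0, 0 and 2 (23.3% of all genes without Scgb1a1), and the 0 that rose became 1, 1 and 0. The test of any dose gave 2 members in place of 1 without Scgb1a1 (21.1% of all genes). Single values changed sign by scaling: LPS against control, Spag7 -0.26 (median-of-ratios), -0.34 (upper-quartile) and -0.00671 (without Scgb1a1), Foxj1 -0.32, -0.39 and -0.0583, Cfap36 -0.24 and -0.31, Cfap97 -0.0613 and Spag9 -0.0724 (upper-quartile), with Spag9 at -7.4e-05 (median-of-ratios). In the extract groups against control Spag7 was at -0.0818, -0.17 and -0.00229, Cfap97 at -0.0110 and -0.0914, and Spag9 at -0.0675 (upper-quartile). At the high dose Spag9 was at 0.0607 and 0.0320, and at the mid dose Foxj1 was at 0.00789 (median-of-ratios).

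Without a filter on low values, 3 rose and 0 fell in LPS against control, 5 fell in the extract groups against control, and 0 passed at the low dose, the high dose and for any dose; with a mean of 1 TPM or more 5 rose in the extract groups. Fitting only the groups compared gave 5 that fell in LPS against control, 6 at the low dose, 0 at the high dose, 5 that rose in the extract groups and 2 for any dose. Sample weights gave 5 that fell in LPS against control (3.61% of all genes), 15 at the low dose (17.4%), 50 at the high dose (36.9%), 64 that fell (10.1%) and 6 that rose (57.5%) in the extract groups, 33 for any dose (38.9%) and 21 that fell with dose (25.1%). A log2 change of 1 or more besides, applied to the counts and not to single genes, left 0 that rose and 0 that fell in LPS against control, 1 at the low dose, 0 at the high dose, and 0 that rose and 1 that fell in the extract groups. Of the refits in this paragraph only sample weights have the share of all genes beside them. It is also not given for upper-quartile scaling, the replicate block and the fits that each left out 1 library. Whether a count that moved in those refits concerns the members or all genes was not tested.

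Without the libraries with little Cxcl2 the members that fell numbered 18 (scaled 69) in LPS against control, 16 (3) at the low dose, 45 (12) at the high dose, 71 in the extract groups and 25 (7) with dose, 31 (9) passed for any dose, and 1 rose with dose after scaling. For any dose the shares of all genes were 27.6% as deposited and 19.3% after scaling. Without the libraries with muscle transcripts they numbered 0 (scaled 10) in LPS against control and 1 (0) at the low dose (6.44% and 0.123% of all genes), and 0 passed for any dose.

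Leaving out 1 library at a time gave 4 to 7 that rose and 0 to 3 that fell in LPS against control (scaled 14 to 42), 0 to 11 at the low dose (scaled 0 to 1), 0 to 29 at the high dose (scaled 0 to 2, with 1 that rose), 3 to 5 that rose and 2 to 30 that fell in the extract groups (scaled 39 to 74), 0 to 14 for any dose (scaled 0 to 2), and 0 to 6 that fell with dose (scaled 0 to 1 that rose). Foxj1 at the mid dose lay between -0.22 and 0.12, above 0 without LPS replicate 2, 4 or 5 or mid dose replicate 2, and in the extract groups against control between -0.24 and 0.0164, above 0 without control replicate 4.

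The labels share replicate numbers between groups. Of 46 same-numbered pairs of libraries 20 had deviations with r over 0.1, against 55 of 184 other pairs (same-numbered r from -0.447 to 0.645, median 0.0616). All 5 pairs of mid and high dose libraries were over 0.1, but those groups were not compared directly. For LPS or control with any other group, at least 1 pair was not over 0.1. The block is therefore only an alternative: a replicate block gave 4 that fell at the low dose (0 scaled), 3 at the high dose and 2 for any dose, and 5 of 24 libraries correlated best with their own number. Over 27 pairs of a named gene and a comparison, the refits other than those without the libraries with little Cxcl2 or with muscle transcripts kept direction and side of the threshold in 730 cases, lost the call in 130, gained one in 6 and changed sign in 25. Those without either set kept 44, lost 7 and gained 3, and the causes were not tested. The depth is unknown, so members near 1 TPM, such as Spag5 and Cfap47, carry the least certain values.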
